A study of Mus musculus with 9 samples.

Results

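The 10 genes described here encode transcription factors that establish or maintain endocrine identity in the islets of Langerhans: Pdx1, Nkx6-1, Nkx2-2, Pax4, Pax6, Neurod1, Insm1, Rfx6, Isl1 and Mnx1. They were chosen by name as factors of beta cells or of all islet endocrine cells, with earlier results of these data known. Each symbol matched 1 of the 55536 genes in the deposited tables. Of the 10, 9 passed the filter on low counts that left 15896 genes for testing, and Pax4 did not.

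RNA was sequenced from endocrine cells that had been sorted by flow cytometry from dispersed islets of C57B/L6 mice at 12 weeks of age, with no allele or treatment given for any group. The islets of all groups had been picked by hand and kept in culture overnight before staining. Cells with low CD24 and without CD71 form the alpha-enriched group, cells with low CD24 and with CD71 the beta-enriched group, and cells with high CD24 the delta-enriched group. CD24 is a surface glycoprotein and CD71 is the transferrin receptor. Each group has 3 libraries, and the labels do not say whether these come from separate animals or pools, so every p-value here measures the spread between these libraries, which may be technical. The sort used no member of the set.

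The libraries held 5663141 to 9529920 expected counts, an expected count being RSEM's estimate of the reads from a gene. Each group carried mainly its own hormone transcript: Gcg was at 89394 ± 9891 counts scaled per 1e6 (CPM, mean ± SD, n = 3) in alpha-enriched cells, Ins2 at 25947 ± 4090 in beta-enriched cells and Sst at 17221 ± 3226 in delta-enriched cells. Transcripts of the other hormones were present too, with Ins2 at 2325 ± 395 CPM and Ppy at 2014 ± 378 in the alpha-enriched group, and Gcg at 4380 ± 2159 and Ppy at 1709 ± 378 in the delta-enriched group. In beta replicate 2, 1 ribosomal RNA locus took 34.4% of all counts, against 3.15% to 5.37% in the other libraries. The 12 acinar marker genes summed to 17985 counts in delta replicate 3 and 2806 in alpha replicate 1, against 132 to 1554 in the others. Marker sums for endothelial, immune and erythroid cells were at most 8.09 CPM in every library, and 4 of the 5 erythroid genes were at 0 in every group. CPM below are scaled with TMM factors, which correct for differences in library composition, and adjusted p-values are from edgeR's quasi-likelihood test with Benjamini-Hochberg adjustment over all tested genes, called at 0.05. Among the alternatives are 3 TPM settings, in which limma was run on log2 TPM (transcript abundance per length and library, the authors' RSEM estimate): with 1 added, with 0.1 added, and with 1 added after rescaling without ribosomal and 7S RNA genes.

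Islet endocrine cells share a developmental route in which a pulse of Neurog3 switches on Neurod1, Insm1, Rfx6, Pax4, Nkx2-2 and Isl1 in endocrine precursors. Pdx1, Nkx6-1 and Mnx1 are homeodomain factors needed for beta cell formation and function, and Pax4 favours beta and delta fates over the alpha fate during development. Pax6 has a paired domain and a homeodomain, Nkx2-2 has a homeodomain, Neurod1 is a basic helix-loop-helix factor, Insm1 a zinc-finger repressor, Rfx6 a winged-helix factor and Isl1 a LIM-homeodomain factor, and all 6 are known in several adult islet cell types.

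Nkx6-1, a homeodomain factor that represses non-beta genes (ENSMUSG00000035187, chromosome 5, 101658139 to 101664996, minus strand, GRCm38), had the order beta, alpha, delta. The beta-enriched libraries stood at 283, 315 and 299.9 CPM, the alpha-enriched libraries at 59.0, 49.2 and 59.7, and the delta-enriched libraries at 17.5, 13.0 and 24.3. No library of any group overlapped another group, and the lowest alpha value was above the highest delta value. Alpha was 3.05-fold above delta (log2 fold change 1.61, SE 0.17, adjusted p = 2.4e-06), beside 5.34-fold for beta over alpha and 16.3-fold for beta over delta. Delta replicate 3, the highest delta library for Nkx6-1, was also the highest for Ins2, at 390.1 CPM against 65.3 and 118 in delta replicates 1 and 2, and the part of this in the Nkx6-1 level was not tested.

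Pdx1, which activates insulin and many other beta cell genes (ENSMUSG00000029644, chromosome 5, 147269959 to 147275848, plus strand), had the order beta, delta, alpha. Its values were 127, 146 and 122 CPM in beta, 75.7, 69.9 and 67.1 in delta, and 10.2, 7.30 and 13.3 in alpha. All 3 groups were again apart in every library, but with alpha rather than delta at the bottom. Beta was above alpha 12.8-fold (a log2 fold change of 3.68, SE 0.17, adjusted p = 4.09e-11) and above delta 1.86-fold (0.89, SE 0.15, adjusted p = 0.000129). Delta was above alpha 6.92-fold (alpha minus delta -2.79, SE 0.17, adjusted p = 1.41e-09). Delta therefore held the intermediate level of Pdx1 and the lowest level of Nkx6-1.

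Mnx1, a homeodomain factor known from beta cells and motor neurons (ENSMUSG00000001566, chromosome 5, 29473034 to 29478470, minus strand), was the scarcest member with counts. The beta-enriched libraries held 68, 47 and 56 counts, or 8.73, 8.05 and 9.24 CPM. The alpha-enriched libraries held 6, 0 and 10 counts, and all 3 delta-enriched libraries held 0. Beta was above alpha in all libraries (log2 fold change 3.63, SE 0.72, adjusted p = 0.00131), with an estimate of 3.05 without alpha replicate 2 and 4.55 without alpha replicate 3. Over a floor of 3 counts for the delta-enriched group, 0.138 CPM, the pooled beta level was 62.9-fold higher and the pooled alpha level 4.87-fold higher. These folds allow for counting error in delta only, and the alpha one rests on 16 counts, with 0 in alpha replicate 2. The comparison of beta with delta passed the test (adjusted p = 3.83e-05). Alpha and delta libraries overlapped at 0, and that comparison passed (adjusted p = 0.0195) but lost the call without alpha replicate 3 (adjusted p = 0.0755), without delta replicate 3 (adjusted p = 0.0503), without alpha replicate 1, beta replicate 2 and delta replicate 3 together (adjusted p = 0.146) and in all 3 TPM settings.

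Pax4, a paired-homeodomain repressor of the alpha programme during development (ENSMUSG00000029706, chromosome 6, 28442334 to 28449353, minus strand), had 0 counts in all 9 libraries. A count of 0 allows up to 0.126 CPM in alpha, 0.152 CPM in beta and 0.138 CPM in delta, taking 3 counts over the group as the limit. These floors cover counting error only. Pax4 therefore enters no comparison.

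Isl1, which works with LIM cofactors in islet and motor neuron development (ENSMUSG00000042258, chromosome 13, 116298281 to 116309689, minus strand), ran the other way, with the order delta, alpha, beta. The delta-enriched libraries stood at 345, 351 and 316 CPM, the alpha-enriched libraries at 159, 170.5 and 174, and the beta-enriched libraries at 144, 144 and 141. Delta was 2.36-fold above beta (beta minus delta -1.24, SE 0.09, adjusted p = 7.08e-09) and 2.01-fold above alpha (alpha minus delta -1.01, SE 0.09, adjusted p = 1.2e-07). Every alpha library was above every beta library, yet the difference did not pass (beta minus alpha -0.23, SE 0.09, adjusted p = 0.0588). It did pass in 7 of the 20 alternatives, among them the fit of only the 6 libraries compared (adjusted p = 0.0234), and its sign turned on rescaled TPM.

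Rfx6, a winged-helix factor needed for insulin secretion and for endocrine differentiation (ENSMUSG00000019900, chromosome 10, 51677756 to 51730432, plus strand), had the order delta, beta, alpha in narrow steps. Delta libraries were at 257, 258 and 239.9 CPM, beta libraries at 221, 201 and 199.7, and alpha libraries at 161, 162 and 183. None of the groups overlapped. Delta was 1.49-fold above alpha (alpha minus delta -0.58, SE 0.09, adjusted p = 0.000117), a call that was lost in all 3 TPM settings (limma adjusted p = 0.448, 0.445 and 0.263). Beta lay between them, 1.23-fold above alpha (a log2 fold change of 0.30, SE 0.09, adjusted p = 0.0208) and 1.21-fold below delta (-0.28, SE 0.09, adjusted p = 0.0255). Both of these smaller steps also lost their calls in all 3 TPM settings. The first lost its call too without alpha replicate 1 (adjusted p = 0.0941), alpha replicate 2 (0.0945), beta replicate 1 (0.106) or beta replicate 2 (0.0516), and the second did so without beta replicate 2 (0.084), beta replicate 3 (0.116) or delta replicate 2 (0.0575). Upper-quartile factors also ended the first call (0.110) and testing without a filter on low counts the second (0.0561), and neither held without alpha replicate 1, beta replicate 2 and delta replicate 3 together (0.173 and 0.113).

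Neurod1, the helix-loop-helix factor downstream of Neurog3 (ENSMUSG00000034701, chromosome 2, 79452521 to 79456751, minus strand), parted alpha and beta from delta. Alpha libraries were at 521, 490.0 and 507 CPM and beta libraries at 527, 481 and 498, while delta libraries were at 213, 166 and 202. The alpha and beta values interleaved, and both groups were above every delta library. Beta was 2.59-fold above delta (log2 fold change 1.37, SE 0.10, adjusted p = 6.91e-09) and alpha 2.61-fold (1.38, SE 0.10, adjusted p = 9.43e-09). Between beta and alpha the difference was -0.01 (SE 0.09, adjusted p = 0.957).

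Nkx2-2, a homeodomain factor that acts with Groucho corepressors (ENSMUSG00000027434, chromosome 2, 147177546 to 147194243, minus strand), had the same division. Its libraries were at 100.5, 111 and 85.9 CPM in alpha, 106, 118 and 117 in beta, and 42.1, 61.1 and 43.2 in delta. Alpha and beta overlapped, and neither overlapped delta. Beta was 2.33-fold above delta (log2 fold change 1.22, SE 0.14, adjusted p = 3.29e-06) and alpha 2.04-fold (1.03, SE 0.14, adjusted p = 3.11e-05), while beta and alpha differed by 0.20 (SE 0.14, adjusted p = 0.345).

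Insm1, a zinc-finger repressor of endocrine precursors and mature islet cells (ENSMUSG00000068154, chromosome 2, 146221921 to 146225020, plus strand), was lowest in alpha. Alpha libraries were at 53.2, 38.7 and 53.2 CPM, beta libraries at 108, 115 and 92.6, and delta libraries at 79.5, 107 and 65.8. Alpha lay below both other groups in every library, whereas beta and delta overlapped. Beta was 2.18-fold above alpha (a log2 fold change of 1.12, SE 0.17, adjusted p = 0.000114) and delta 1.74-fold (alpha minus delta -0.80, SE 0.17, adjusted p = 0.00265). The call between alpha and delta was lost in all 3 TPM settings (limma adjusted p = 0.279, 0.275 and 0.165). Beta and delta differed by 0.33 (SE 0.17, adjusted p = 0.161), and by 0.54 without delta replicate 2, where the call was made (adjusted p = 0.012). Over the 20 alternatives the difference ran from 0.099 to 0.66, and the call was made in 2 of them.

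Pax6, a paired-homeodomain factor that activates the insulin, glucagon and somatostatin genes (ENSMUSG00000027168, chromosome 2, 105668900 to 105697364, plus strand), had the smallest range of group means among the 9 tested members on the log2 scale. Beta libraries were at 444, 419.5 and 429 CPM, alpha libraries at 329, 323 and 328, and delta libraries at 339, 336 and 338. Beta was above both other groups in every library, by 1.32-fold over alpha (a log2 fold change of 0.40, SE 0.08, adjusted p = 0.000738) and 1.28-fold over delta (0.35, SE 0.08, adjusted p = 0.00192). Alpha and delta did not overlap, but the difference was small and did not pass (-0.05, SE 0.08, adjusted p = 0.707). The call over alpha was lost in all 3 TPM settings (limma adjusted p = 0.524, 0.521 and 0.0776), and that over delta with 1 or 0.1 added to TPM (0.191 and 0.186).

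**Figure D1:**
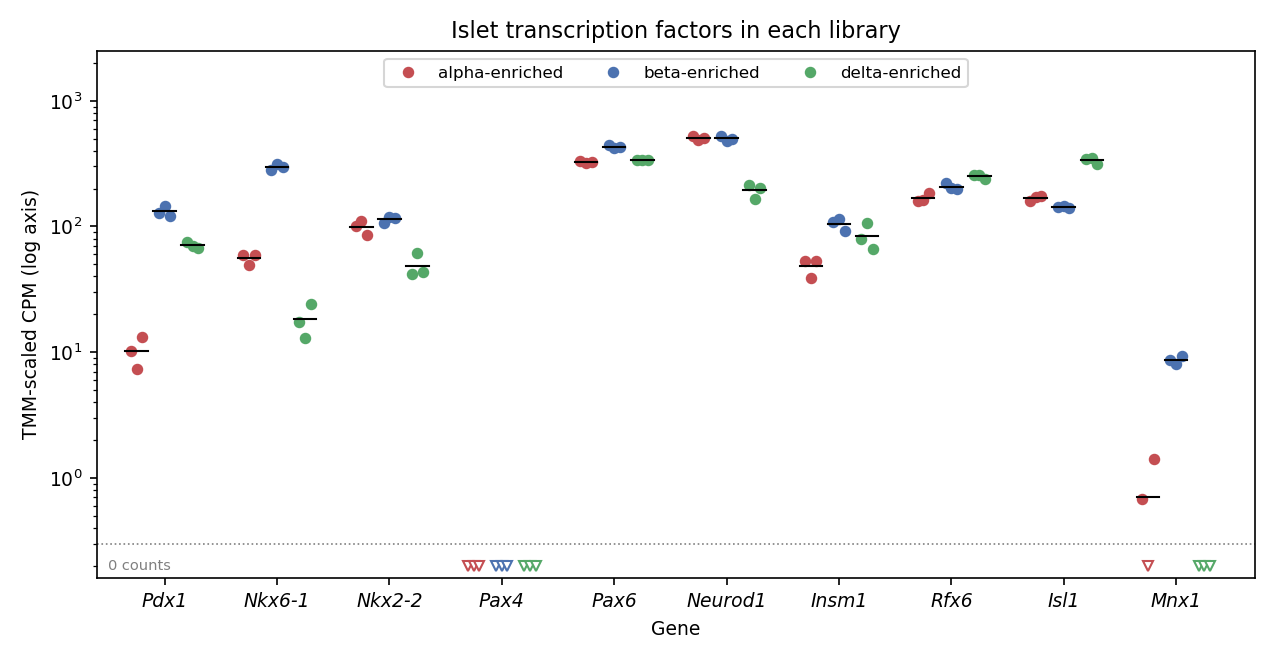
TMM-scaled CPM of the 10 transcription factor genes in the 9 libraries, on a log axis, with 1 point per library and a bar at the mean of each group. Open triangles below the dotted line mark libraries with 0 counts. The beta points of Nkx6-1, Pdx1 and Mnx1 sit above all others, the delta points of Isl1 and Rfx6 sit highest, and the delta points of Neurod1 and Nkx2-2 sit lowest.

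Upstream sequence is shown for Mnx1, which was detected mainly in beta, and for Isl1 and Rfx6, which were highest in delta, because members with opposite orders let a reader compare the stretches before their starts. RefSeq promoter entries were found for 8 of the 10 members, all but Insm1 and Pax4. Each sequence is the RefSeq reference (GRCm38.p6), read 5′ to 3′ on the gene's strand and ending 1 base before the RefSeq start for Mnx1 and Rfx6 and 2 bases before it for Isl1, and none overlaps an annotated exon. Capitals mark CANNTG, the E-box core bound by helix-loop-helix factors such as Neurod1, and TAAT on either strand, the core bound by many homeodomain factors. The Mnx1 stretch is chr5:29478471-29478720 (minus strand), the Isl1 stretch chr13:116309690-116309938 (minus strand) and the Rfx6 stretch chr10:51685268-51685517 (plus strand). The Rfx6 stretch lies inside the gene's GENCODE span, which begins at 51677756.
Mnx1: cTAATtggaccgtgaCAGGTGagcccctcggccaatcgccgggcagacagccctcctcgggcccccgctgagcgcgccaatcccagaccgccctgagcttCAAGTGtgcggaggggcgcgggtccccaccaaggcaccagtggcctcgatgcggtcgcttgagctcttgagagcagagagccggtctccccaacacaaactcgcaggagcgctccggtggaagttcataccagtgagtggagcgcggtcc
Isl1: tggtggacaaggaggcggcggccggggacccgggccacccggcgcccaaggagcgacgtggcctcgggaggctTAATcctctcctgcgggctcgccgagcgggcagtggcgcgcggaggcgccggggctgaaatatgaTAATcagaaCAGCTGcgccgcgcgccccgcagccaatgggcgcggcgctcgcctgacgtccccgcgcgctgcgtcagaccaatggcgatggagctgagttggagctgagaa
Rfx6: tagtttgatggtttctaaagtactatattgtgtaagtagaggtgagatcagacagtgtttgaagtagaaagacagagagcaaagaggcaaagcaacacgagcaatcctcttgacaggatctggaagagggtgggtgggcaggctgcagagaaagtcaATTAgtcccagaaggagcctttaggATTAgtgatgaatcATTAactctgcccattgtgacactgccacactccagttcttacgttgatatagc
The Mnx1 stretch held 2 E-boxes, CAGGTG and CAAGTG, and 1 TAAT. The Isl1 stretch held 1 E-box, CAGCTG, and 2 TAAT cores. The Rfx6 stretch held 3 TAAT cores and no E-box. No match of one motif overlapped a match of the other. Over all 32851 RefSeq promoter windows of 250 bases, 66.2% held a CANNTG and 54.9% a TAAT on either strand, so a match is common and describes only these letters.

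Counting calls over the set, 6 of the 9 tested members were higher in beta than in alpha and none was lower, against a background of 26.6% of all tested genes called in either direction, 14.8% higher and 11.9% lower. The 3 without a call were Nkx2-2, Neurod1 and Isl1. Between beta and delta 8 members were called, 6 higher in beta and 2 lower, where 30.6% of all genes were called, 15.4% higher and 15.3% lower; the lower ones were Isl1 and Rfx6, and Insm1 had no call. Between alpha and delta 8 were called, 4 higher in alpha and 4 lower, where 24.3% of all genes were called, 11.0% higher and 13.3% lower. Nkx6-1, Nkx2-2, Neurod1 and Mnx1 were the higher ones, Pdx1, Insm1, Rfx6 and Isl1 the lower ones, and Pax6 had no call.

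The groups did not overlap for 7 members between beta and alpha, 8 between beta and delta and 8 between alpha and delta, where 45.5%, 42.6% and 36.1% of all tested genes did not overlap. The median absolute log2 fold change of the 9 members was 0.40 between beta and alpha, 1.22 between beta and delta and 1.03 between alpha and delta, beside 0.37, 0.42 and 0.37 over all tested genes. With Mnx1 set to its fold over the delta floor in the comparisons with delta these medians were the same. They could not change, since Mnx1 lay above them at that fold as well as at its estimate. Signed medians were 0.40, 0.89 and -0.05 for the members and -0.02, -0.02 and -0.01 for all tested genes. The 3 comparisons share libraries in pairs and are not independent. In the 3 TPM settings 4, 4 and 4 rather than 6 members were called between beta and alpha, 6, 6 and 7 rather than 8 between beta and delta, and 5, 5 and 5 rather than 8 between alpha and delta.

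**Figure D2:**
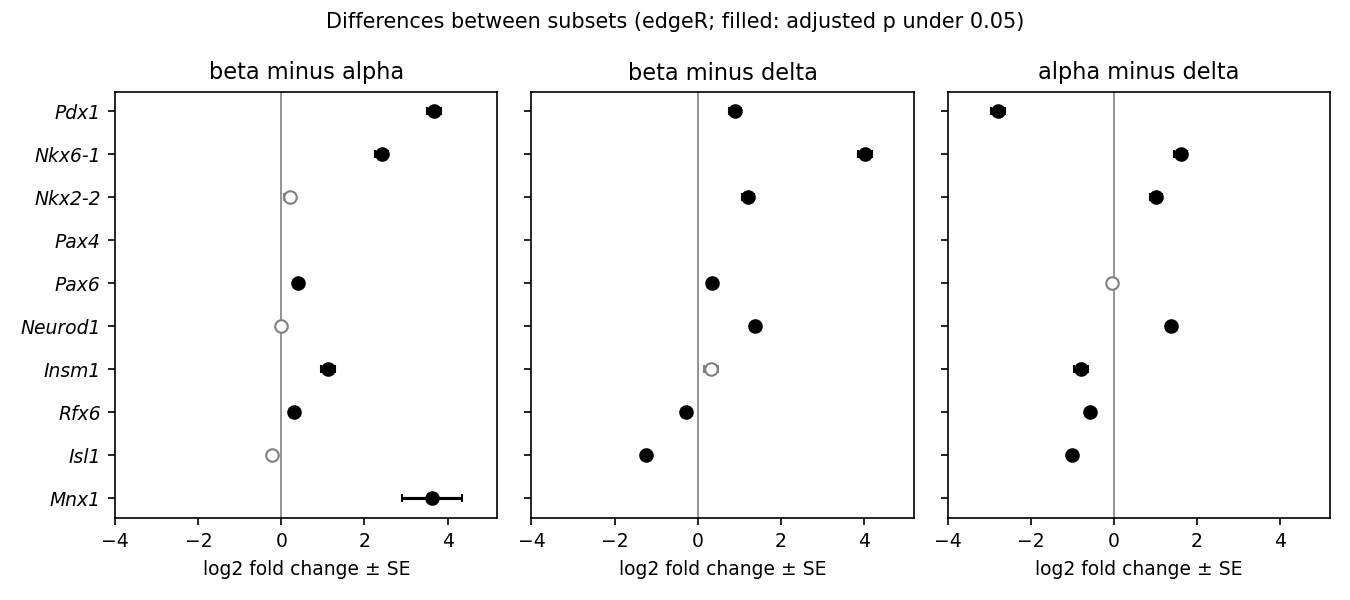
Log2 fold changes of the tested members in the 3 comparisons, with bars of 1 SE from the edgeR fit and filled points where the adjusted p is under 0.05. Mnx1 is left out of both comparisons with delta because delta had 0 counts, and Pax4 was not tested. Pdx1 is at 3.68 and Nkx6-1 at 2.42 for beta minus alpha, while Isl1 is at -1.24 for beta minus delta and -1.01 for alpha minus delta.

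Levels of different genes can be compared only per length, for which TPM was used. Pax6 had rank 1 among the members in all beta- and delta-enriched libraries, at 117, 92.4 and 150.4 TPM in beta and 69.3, 88.8 and 92.4 in delta. In alpha it had rank 2 at 81.4, 85.0 and 118 TPM, behind Neurod1 at 96.9, 93.6 and 130.5. Neurod1 was behind 3 members in every delta library, at 30.5, 31.8 and 40.8 TPM, where Pax6, Isl1 (58.4, 86.0 and 79.4 TPM) and Rfx6 stood above it. Nkx6-1 had rank 3 in beta at 47.0, 44.1 and 64.6 TPM, rank 6 in alpha at 9.45, 8.09 and 13.2, and rank 8 in delta at 2.16, 2.14 and 4.22.

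Ratios of TPM within 1 library do not depend on library scaling. The ratio of Nkx6-1 to Isl1 was 1.37, 1.40 and 1.43 in the beta-enriched libraries, 0.258, 0.205 and 0.235 in the alpha-enriched libraries and 0.0370, 0.0249 and 0.0531 in the delta-enriched libraries. Nkx6-1 thus exceeded Isl1 in every beta library and in no other. The ratio of Pdx1 to Isl1 was 0.924, 0.980 and 0.875 in beta, 0.240, 0.201 and 0.221 in delta, and 0.0674, 0.0456 and 0.0789 in alpha. Neurod1 exceeded Isl1 in alpha (2.65, 2.37 and 2.32) and beta (2.97, 2.50 and 2.76) and was below it in delta (0.523, 0.370 and 0.514). Pax6 exceeded Isl1 in all libraries, with ratios of 2.95 to 3.41 in beta, 1.03 to 1.19 in delta and 2.10 to 2.22 in alpha. The same libraries and the same Isl1 values enter all of these ratios. Beta replicate 2, with its high share of ribosomal RNA, was the lowest of the 3 beta libraries for Neurod1 and Pax6 and the highest for Pdx1.

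**Figure D3:**
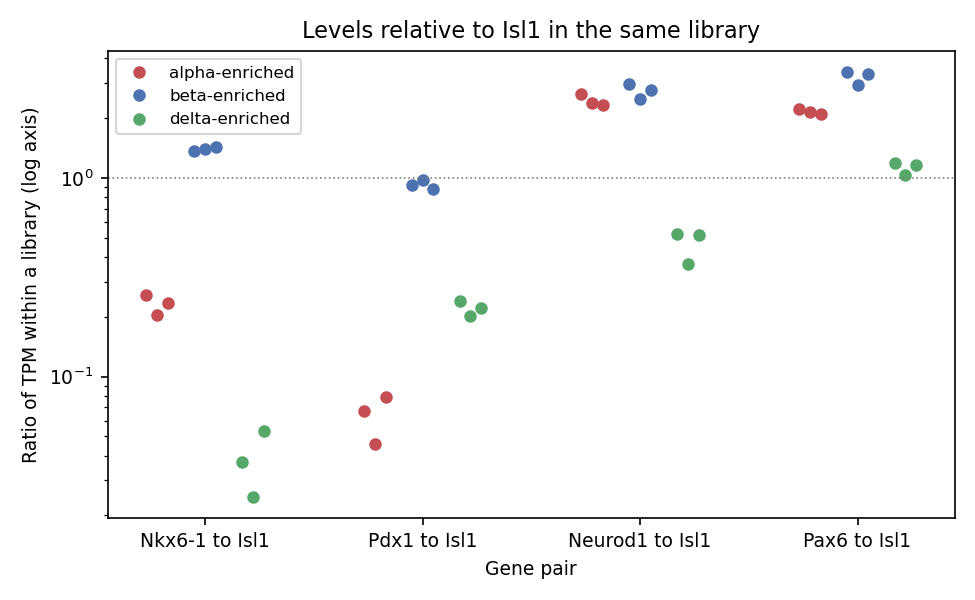
Ratio of the TPM of Nkx6-1, Pdx1, Neurod1 and Pax6 to that of Isl1 within each of the 9 libraries, on a log axis, with a line at a ratio of 1. The 3 libraries of a group lie close together, and the groups are apart for Nkx6-1 (0.0249 to 0.0531 in delta, 0.205 to 0.258 in alpha, 1.37 to 1.43 in beta).

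Since insulin transcripts were present in all groups, the members' levels outside beta were set beside those of 12 beta cell markers that are not members. In sorted bulk samples, fewer cells of a type and less RNA per cell cannot be told apart. In the alpha-enriched group Pdx1 stood at 7.81% of its beta mean, Mnx1 at 8.05% and Nkx6-1 at 18.7%, while Ins1 stood at 8.25%, Ins2 at 8.96% and the 12 markers at a median of 8.60% (4.11% for Ucn3 to 135% for Slc30a8). Pdx1 was thus at about the share of the insulin genes there, and Nkx6-1 was at a larger share. The Mnx1 share rests on few counts and was 12.1% without alpha replicate 2 and 3.94% without alpha replicate 3. Across alpha replicates 1, 2 and 3, Pdx1 was at 10.2, 7.30 and 13.3 CPM and Ins2 at 2772, 2027 and 2175. The part of beta cell RNA in the alpha values was not tested.

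In the delta-enriched group the picture was different for Pdx1. It stood at 53.9% of its beta mean, where Ins1 stood at 0.886%, Ins2 at 0.737% and the 12 markers at a median of 1.55%, the highest being Iapp at 37.5%. Without delta replicate 3 the share was 55.3% for Pdx1, 0.444% for Ins1 and 0.354% for Ins2. Nkx6-1 stood at 6.10% and Mnx1 at 0. For the pan-endocrine factors, delta held 42.9% of the beta mean for Nkx2-2, 38.6% for Neurod1, 78.3% for Pax6 and 79.8% for Insm1, and 122% for Rfx6 and 236% for Isl1. Alpha held 87.1% for Nkx2-2, 100.7% for Neurod1, 75.7% for Pax6, 45.9% for Insm1, 81.3% for Rfx6 and 117% for Isl1. All 12 beta markers summed to 6092 to 7386 CPM in delta libraries and 5588 to 7816 in alpha libraries, against 55265 to 66397 in beta libraries, and none of the 12 was at 0 in any group. Iapp made up 91.3% of that sum in delta, against 26.4% in alpha and 27.1% in beta. Without Iapp the markers summed to 399 to 938 CPM in delta libraries and 4167 to 5720 in alpha libraries, with Ins2 at a mean of 191 CPM in delta against 2325 in alpha.

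**Figure D4:**
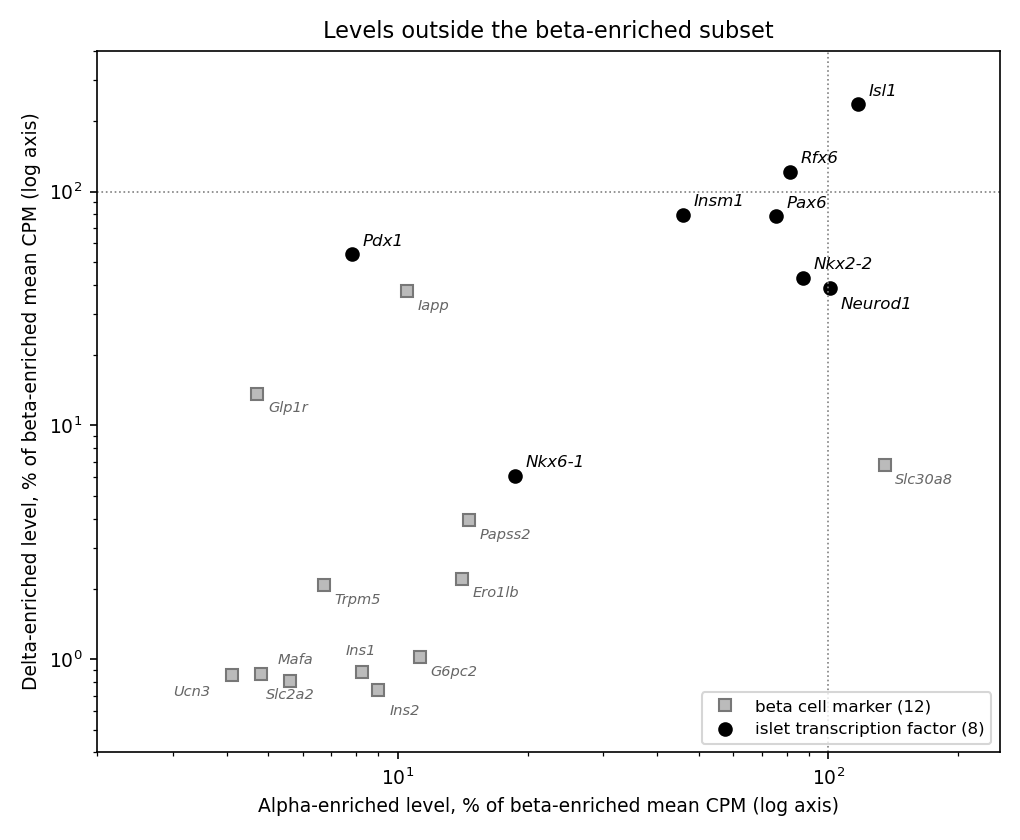
Mean CPM in the alpha- and delta-enriched groups as a percent of the mean in the beta-enriched group, with alpha on the horizontal and delta on the vertical log axis, for 8 members and the 12 beta cell markers. Pdx1 lies among the markers in alpha (7.81%) and above all of them in delta (53.9%), and Isl1 is the highest member in both (117% and 236%).

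Genes that overlap a member or start within 10 kb of it were read next, since reads can be shared between overlapping genes and the sources used here do not give the strand setting of the authors' counting. Plut, an antisense RNA whose span overlaps the start of Pdx1 (chromosome 5, 147228596 to 147271521), was at 4.17 ± 0.899 CPM in beta, 2.08 ± 1.36 in delta and 0.701 ± 0.244 in alpha (mean ± SD, n = 3). Its beta level passed above alpha by 2.53 on the log2 scale (SE 0.67, adjusted p = 0.00828), and its other comparisons did not pass (adjusted p = 0.239 and 0.115), although alpha minus delta did without delta replicate 3 (-1.99, adjusted p = 0.0184). Gm27033, a lincRNA on the Pdx1 strand downstream of the gene (147280720 to 147281263), had the Pdx1 order, at 17.3 ± 2.85 CPM in beta, 7.37 ± 1.93 in delta and 1.59 ± 0.775 in alpha. It passed in all 3 comparisons, at 3.41 for beta minus alpha (SE 0.37, adjusted p = 1.55e-06), 1.23 for beta minus delta (SE 0.32, adjusted p = 0.0066) and -2.18 for alpha minus delta (SE 0.37, adjusted p = 0.00028). The second call was lost without alpha replicate 1, beta replicate 2 and delta replicate 3 together (adjusted p = 0.0754).

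Cerkl, a protein-coding gene on the same strand whose span contains Neurod1 (chromosome 2, 79330543 to 79456785), was, like Neurod1, lowest in delta: 52.8 ± 4.36 CPM in alpha, 57.7 ± 6.85 in beta and 28.6 ± 2.27 in delta. Its log2 fold change was 1.01 for beta minus delta (SE 0.14, adjusted p = 1.76e-05) and 0.88 for alpha minus delta (SE 0.14, adjusted p = 0.000103). Counts of Cerkl were not whole numbers in any library, whereas those of Neurod1 were whole in alpha replicate 3 and beta replicate 2. Fractions in Cerkl therefore need not come from reads shared with Neurod1, and how RSEM divided reads between these genes was not tested. Pax6os1, antisense to Pax6, was at 6.57 ± 0.680 CPM in delta, 5.12 ± 1.10 in beta and 1.76 ± 0.873 in alpha, and differed between beta and alpha (1.53, SE 0.43, adjusted p = 0.0137) and between alpha and delta (-1.89, SE 0.43, adjusted p = 0.00353). The first of these calls was lost without alpha replicate 2 (adjusted p = 0.0602) or beta replicate 1 (0.0764), and with 1 or 0.1 added to TPM (limma adjusted p = 0.0912 and 0.0739). Paupar, a lincRNA upstream of Pax6, was at 9.85 to 15.1 CPM on average in the 3 groups and passed in no comparison. 6430503K07Rik, antisense within Nkx2-2, was at means of 0.592 to 2.55 CPM and passed in none either, with estimates of 2.13 for alpha minus delta and 1.88 for beta minus delta. Without delta replicate 2 these were 4.11 (adjusted p = 0.00304) and 3.87 (adjusted p = 0.00368). Over all alternatives the first comparison was called in 7 and the second in 5.

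The RSEM tables also give a mean transcript length per gene and library, weighted by the estimated share of each annotated transcript. It could vary for 4 members with enough counts: Nkx2-2, Pax6, Rfx6 and Isl1. For Rfx6 the length was 3049, 3073 and 3157 bases in beta libraries, 3012, 2977 and 2933 in alpha libraries and 2965, 2988 and 2957 in delta libraries. Beta was longer than alpha and than delta in every library, with means of 3093 ± 56.6, 2974 ± 39.7 and 2969.7 ± 16.1 bases (SD, n = 3). The exact 2-sided permutation test gave p = 0.1 for each, the smallest p that 3 libraries against 3 allow, so this design cannot reach 0.05. The annotation lists 5 Rfx6 transcripts, coding ones of 3464, 3088 and 2682 bases, a retained-intron one of 1896 and one of 2101 subject to nonsense-mediated decay. Lengths of Nkx2-2, Pax6 and Isl1 overlapped between all groups (exact permutation p = 0.3 to 1).

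**Figure D5:**
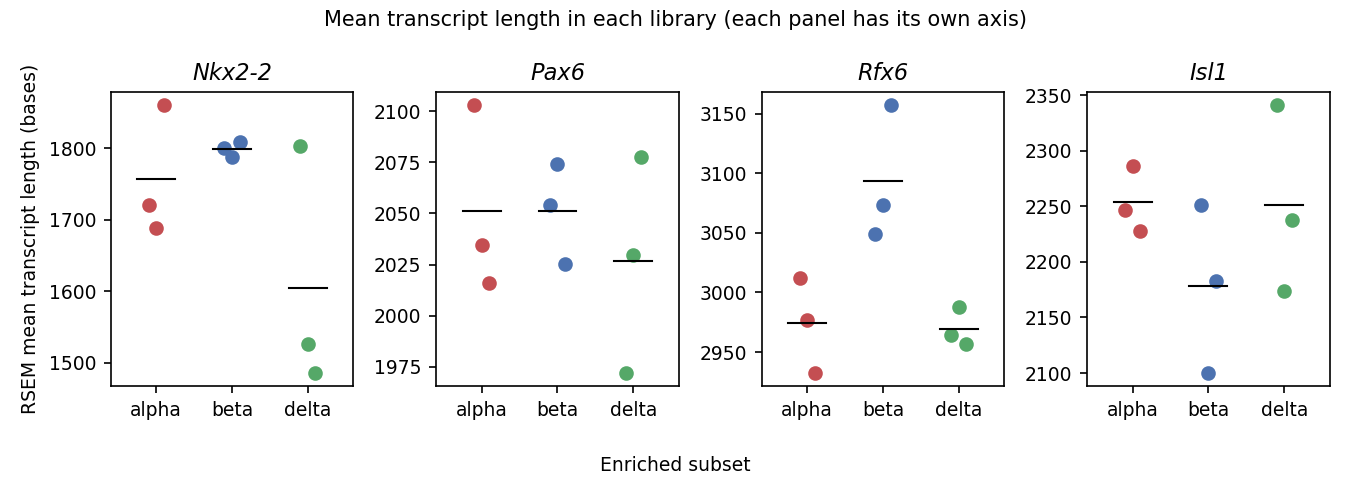
RSEM mean transcript length in bases of Nkx2-2, Pax6, Rfx6 and Isl1 in each library, with a bar at each group mean. The Rfx6 points of beta (3049 to 3157 bases) lie above those of alpha and delta, and the groups overlap for the other 3 genes.

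For each tested member, the protein-coding genes with the most similar pattern were taken as the 3 with the highest Pearson r of log2 CPM over the 9 libraries, among 8679 genes at a mean of 10 CPM or more. These values are a description with no test, since the points share libraries and fall into 3 groups. Nkx6-1 was closest to Glul (r = 0.997), which encodes glutamine synthetase, Papss2 (0.996) and Dmpk (0.996). Pdx1 was closest to Tenm3 (0.996), at 142 ± 1.55 CPM in beta, 87.6 ± 5.59 in delta and 13.9 ± 4.38 in alpha, and to Mpdz (0.994) and Rasgrf1 (0.991). Mnx1 was closest to Akirin1 (0.987), Plcxd3 (0.983) and Ncoa4 (0.982). Pax6 was closest to the chromatin remodeller gene Chd7 (0.993), the adrenergic receptor gene Adra2a (0.993) and 4930402H24Rik (0.991).

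Neurod1 was closest to the phosphatase gene Ppm1b (r = 0.996), the zinc transporter gene Slc30a8 (0.995) and Tmod2 (0.994). Ppm1b stood at 219 ± 11.2 CPM in alpha, 219 ± 10.9 in beta and 105 ± 11.9 in delta. Nkx2-2 was closest to Ctdspl (0.982), Hip1r (0.976) and Rangap1 (0.976), and Insm1 to Tmc7 (0.978), Tmem9b (0.975) and Tmem231 (0.971). Isl1 was closest to Dgkb (0.995), the chromatin remodeller gene Smarca2 (0.994) and the calcium channel gene Cacna1h (0.993). The high r of Cacna1h with Isl1 went with a much larger range, from 0.210 ± 0.106 CPM in beta to 109.6 ± 21.6 in delta. Rfx6 was closest to the potassium channel gene Kcnh8 (0.985), Pts (0.978) and Tmem184c (0.978). Among pairs of members, r was highest for Nkx6-1 with Mnx1 (0.954) and Pdx1 with Insm1 (0.929), and lowest for Neurod1 with Isl1 (-0.974) and Nkx2-2 with Isl1 (-0.943).

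Other islet transcription factors were read as a list of 31 genes, of which 27 were tested. In beta against alpha 4 passed as higher and 11 as lower, and 12 did not pass, with a median log2 fold change of -0.31. Against delta 2 passed as higher in beta, 14 as lower and 11 not (median -0.54), and between alpha and delta 8 passed as higher in alpha, 10 as lower and 9 not (median -0.20). The shares of all tested genes called were 26.6%, 30.6% and 24.3% in these 3 comparisons, for this list and those that follow. Gata6, a zinc-finger factor of pancreas development, was at 10.1 ± 0.750 CPM in beta against 66.7 ± 6.14 in alpha and 63.4 ± 7.60 in delta (log2 fold changes -2.73, SE 0.15, adjusted p = 3.53e-10, and -2.65, SE 0.15, adjusted p = 4.27e-10). Prox1, a homeobox factor of pancreatic progenitors, was also lowest in beta, at 136 ± 8.57 CPM against 368 ± 7.99 in alpha and 372 ± 15.2 in delta (-1.44 and -1.45, SE 0.09 for both, adjusted p = 9.89e-10 and 7.42e-10). Neurog3, the activator of the endocrine route, was at 43.0 ± 6.84 CPM in delta, 0.910 ± 0.496 in alpha and 0.222 ± 0.251 in beta (alpha minus delta -5.57, SE 0.37, adjusted p = 5.52e-09). Glis3, which is needed for insulin gene expression, shared the Pdx1 feature of a low alpha level, at 44.6 ± 3.63 CPM against 134 ± 2.52 in beta and 123 ± 5.33 in delta (beta minus alpha 1.58, SE 0.10, adjusted p = 2.81e-09).

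Close relatives of the members were mostly too low to test: 6 of 29 listed paralogues passed the filter. In beta 2 of these 6 were lower than in alpha and 3 lower than in delta, none was higher, and between alpha and delta 1 was higher and 1 lower in alpha, with the rest without a call. Rfx3, a regulator of cilia genes and of endocrine differentiation, was at 183 ± 12.7 CPM in delta, 136 ± 12.5 in beta and 121 ± 8.51 in alpha (alpha minus delta -0.61, SE 0.10, adjusted p = 0.000228), and this call was lost in all 3 TPM settings (limma adjusted p = 0.488, 0.485 and 0.310). Rfx7 was at 157 ± 11.9 CPM in alpha, above beta at 89.0 ± 10.2 (beta minus alpha -0.82, SE 0.11, adjusted p = 2.29e-05) and delta at 113 ± 10.2 (alpha minus delta 0.48, SE 0.11, adjusted p = 0.00367). The first Rfx7 call was lost on rescaled TPM (limma adjusted p = 0.0605), and the second in all 3 TPM settings (0.0534, 0.0571 and 0.0510) and without alpha replicate 1, beta replicate 2 and delta replicate 3 together (0.0921). Without those 3 libraries the count of paralogues called was 1 in each of the 3 comparisons. In the 3 TPM settings it was 1, 1 and 0 between beta and alpha and 0 in each of the other comparisons. Between beta and alpha it was also 1 without any 1 of the alpha or beta libraries or delta replicate 3, Rfx2 having lost its call.

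LIM cofactors, which bridge LIM-homeodomain factors such as Isl1, comprised 9 genes, 7 of them tested. Between beta and alpha 1 was called, higher in beta; between beta and delta 1 was higher and 3 lower in beta; and between alpha and delta 1 was higher and 4 lower in alpha. The central bridging factor Ldb1 passed in none, at 46.1 ± 4.73 CPM in alpha, 52.4 ± 2.22 in beta and 56.6 ± 7.82 in delta. Its partner Ssbp3 had the delta-high side of the Isl1 order, at 70.7 ± 4.54 CPM in delta, 44.3 ± 2.63 in beta and 33.0 ± 3.05 in alpha (alpha minus delta -1.10, SE 0.13, adjusted p = 3.65e-06). The single call between beta and alpha was that of Ssbp3 (0.43, SE 0.13, adjusted p = 0.0183) and was lost in all 3 TPM settings (limma adjusted p = 0.831, 0.831 and 0.329) and without alpha replicate 1 (0.0939), beta replicate 1 (0.0763) or beta replicate 3 (0.0677). The Ssbp3 call between alpha and delta was lost with 1 or 0.1 added to TPM (0.107 and 0.111). In the 3 TPM settings the list had 0, 0 and 0 calls between beta and alpha, 2, 2 and 2 between beta and delta, and 2, 2 and 3 between alpha and delta, and without alpha replicate 1 it had 3 in the last. Lmo4, a LIM-only protein that competes for Ldb1, was at 0.474 ± 0.256 CPM in delta, 5.32 ± 0.227 in alpha and 4.93 ± 0.330 in beta (alpha minus delta 3.47, SE 0.50, adjusted p = 4.67e-05). Lmo3 was at 31.8 ± 4.09 CPM in delta, 0.311 ± 0.360 in alpha and 0.0428 ± 0.0741 in beta.

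E proteins dimerise with helix-loop-helix factors such as Neurod1, and Id proteins block them. All 7 listed genes were tested; 5 were lower in beta than in alpha and 5 lower than in delta, with none higher, and between alpha and delta 3 were higher and 2 lower in alpha. Without alpha replicate 1, beta replicate 2 and delta replicate 3 together, 3 were called between beta and delta and 3 between alpha and delta, and leaving out beta replicate 1 or beta replicate 2 alone also left 3 between beta and delta. In the 3 TPM settings 2, 3 and 2 were called between beta and alpha, 2, 2 and 2 between beta and delta, and 2, 2 and 3 between alpha and delta. Id2 was at 18.0 ± 2.55 CPM in beta, 30.9 ± 5.53 in alpha and 55.4 ± 2.97 in delta (-0.77, SE 0.17, adjusted p = 0.0022 for beta minus alpha, and -1.61, SE 0.17, adjusted p = 8.81e-07 for beta minus delta), and the first of these calls was lost in all 3 TPM settings (limma adjusted p = 0.0936, 0.0922 and 0.215). Id3 was at 26.7 ± 1.78 CPM in alpha, 3.44 ± 1.88 in delta and 1.29 ± 0.455 in beta (beta minus alpha -4.37, SE 0.37, adjusted p = 7.76e-08). Tcf4, an E protein gene, was at 177 ± 11.2 CPM in delta against 97.9 ± 11.0 in beta and 90.8 ± 8.08 in alpha (beta minus delta -0.85, SE 0.11, adjusted p = 1.01e-05), a call lost in all 3 TPM settings (0.122, 0.125 and 0.166).

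Corepressors and chromatin partners of these factors comprised 22 tested genes of 23 listed. In beta against alpha 2 were higher, 6 lower and 14 without a call, against delta 6 higher, 6 lower and 10 without a call, and between alpha and delta 5 were higher in alpha, 4 lower and 13 without a call. In the 3 TPM settings the calls fell to 4, 4 and 3 between beta and alpha, 5, 5 and 6 between beta and delta, and 2, 2 and 2 between alpha and delta. Without alpha replicate 1, beta replicate 2 and delta replicate 3 together, 5 were called in the first comparison and 3 in the last. The Groucho corepressor genes went in different directions: Tle3 was at 130.4 ± 18.3 CPM in beta, 62.6 ± 10.0 in delta and 36.1 ± 9.95 in alpha (beta minus alpha 1.86, SE 0.18, adjusted p = 1.28e-06), and Tle1 at 22.3 ± 1.34, 45.0 ± 12.1 and 71.1 ± 8.24 CPM in the same order of groups (-1.67, SE 0.18, adjusted p = 1.47e-06). Setd7, a methyltransferase that Pdx1 recruits, was at 99.7 ± 2.71 CPM in delta, 159 ± 10.2 in beta and 180.2 ± 7.18 in alpha (beta minus delta 0.67, SE 0.09, adjusted p = 1.92e-05), a call lost in all 3 TPM settings (limma adjusted p = 0.291, 0.288 and 0.101).

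Known target genes of the members comprised 22 tested genes of 23 listed, and the list includes hormone genes and cell type markers that define the groups, so its direction is not independent evidence. In beta against alpha 14 were higher, 5 lower and 3 without a call (median 1.43), against delta 12 higher, 6 lower and 4 without a call (median 1.62), and between alpha and delta 11 were higher in alpha, 7 lower and 4 without a call (median 1.33). Gipr, the receptor for the incretin GIP, was at 56.9 ± 2.10 CPM in beta, 20.8 ± 2.75 in alpha and 16.1 ± 3.29 in delta (beta minus delta 1.82, SE 0.17, adjusted p = 2.94e-07). Slc30a8, a target of Pdx1, was lowest in delta like Neurod1, rather than in alpha like Pdx1. It was at 900.3 ± 62.9 CPM in alpha, 666 ± 64.8 in beta and 45.0 ± 15.0 in delta (alpha minus delta 4.32, SE 0.24, adjusted p = 8.66e-07), with no call between beta and alpha (-0.43, SE 0.21, adjusted p = 0.168). Its drop in delta was larger, to 6.76% of its beta mean against 38.6% for Neurod1.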

How the data were processed

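For each library the deposited RSEM gene table held expected counts, TPM and lengths, per the file headers. The deposited TPM values are RSEM's estimates per transcript length, and the deposited expected counts can hold fractions where reads match several genes (6.94% to 8.66% of genes per library). Reads were aligned to GRCm38.p6 with STAR 2.5.2b and quantified with RSEM, as far as the submitters' processing notes name tools and builds. The RSEM version and the strand setting are not given in the sources used here. Per the labels' protocols, libraries were strand-specific, from random-primed RNA depleted of ribosomal RNA, with paired-end reads.

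All 55536 gene identifiers matched GENCODE M21. Expected counts were rounded, filtered with filterByExpr by group (15896 genes left) and scaled with TMM factors. edgeR 4.0.16 under R 4.3.3 fitted all 9 libraries in a robust quasi-likelihood model with 1 coefficient per group, 6 residual degrees of freedom and a common biological coefficient of variation of 0.212. Tests were 2-sided, with Benjamini-Hochberg adjustment over all 15896 genes at 0.05. SE is that of the log2 fold change. The fit was tested on simulated data. The 20 alternatives were 2 other scalings, DESeq2 1.42.0, 2 filters, limma 3.58.1 on TPM in 3 settings, the 6 libraries compared alone, each library left out, 3 libraries left out together and a replicate block.

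The named genes were all 10 members, up to 4 called genes per list and comparison with the smallest p, 3 like-pattern genes per member, neighbours within 10 kb and 5 hormone genes. Not every gene the rule took is printed. Ldb1 was named after its value was seen. The members and lists were chosen with earlier results of these data known. Of 204 list entries 2 had no matching symbol. The list of epsilon cell markers, Ghrl alone, was at most 1.03 CPM in any library. Summed markers in the alpha-, beta- and delta-enriched libraries ran as follows. Alpha cell markers summed to 83802 to 103426, 931 to 1173 and 2730 to 6994 CPM. Delta cell markers summed to 191 to 219, 89.9 to 105 and 15876 to 22277 CPM, and PP cell markers to 2747 to 3832, 62.4 to 90.4 and 4358 to 6277 CPM. Acinar markers summed to 52.3 to 320, 16.9 to 54.7 and 184 to 2311 CPM, and duct markers to 603 to 795, 363 to 414 and 190 to 342 CPM. Mesenchymal markers reached 50.4 CPM and Schwann cell markers 29.8 CPM at most.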

Additional observations from a re-analysis of the deposited data

How the results depend on the processing

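All calls of Pdx1 and Nkx6-1, those of Neurod1, Nkx2-2 and Isl1 against delta, that of Insm1 for beta against alpha and those of Mnx1 for beta against both other groups held in all 20 alternatives. Over members, comparisons and alternatives, 488 values kept direction and side of the threshold, 33 lost the call with the same sign, 9 gained it and 9 changed sign, each of them small: Pax6 for alpha minus delta (0.17 on log2(TPM + 1), 0.17 on log2(TPM + 0.1) and 0.087 on rescaled TPM), Neurod1 for beta minus alpha (0.18 on rescaled TPM, 0.0069 without alpha replicate 1, 0.0098 without beta replicate 2 and 0.037 without 3 libraries), Rfx6 for beta minus delta (0.0013 on rescaled TPM, where its call was also lost) and Isl1 for beta minus alpha (0.019 on rescaled TPM). Rescaled TPM, without ribosomal and 7S RNA genes, moved the median of all genes by 0.15, 0.27 and 0.11 for beta minus alpha, beta minus delta and alpha minus delta. Relative to that shift Rfx6 was at -0.27, Isl1 at -0.13 and Pax6 at -0.021, while Neurod1 kept the changed sign at 0.029. The TPM values moved the median of all genes by 0.12 and 0.16 with 1 added and by 0.17 and 0.23 with 0.1 added in the comparisons with delta. Relative to those shifts Pax6 for alpha minus delta was at 0.0097 with 1 added and -0.057 with 0.1 added. Genes called between beta and alpha went from 4231 to 1765, 1819 and 2278 in the 3 TPM settings and 2540 without alpha replicate 1, beta replicate 2 and delta replicate 3. Between beta and delta they went from 4869 to 2446 and 2480 on log2(TPM + 1) and log2(TPM + 0.1), and between alpha and delta from 3868 to 1807, 1782 and 1802 in the 3 TPM settings and 2364 without those 3 libraries. Members called went from 8 to 5 between alpha and delta in the 3 TPM settings, from 6 to 4 between beta and alpha in each, and from 8 to 6, 6 and 7 between beta and delta. Calls higher in beta took 68.2% against alpha and 69.2% against delta on rescaled TPM, where the reported split was 55.4% and 50.2%, and 45.5% and 43.8% with upper-quartile factors, and 55.3% were higher in alpha than in delta on log2(TPM + 0.1), against 45.2%. Leaving out each library gave 5 to 7 members for beta against alpha, 7 to 8 for beta against delta and 7 to 8 for alpha against delta, and the 3 libraries together 5, 7 and 7. The cause of each change was not tested. Deviations from the group mean correlated at 0.001 to 0.112 between same-numbered libraries of different groups. Between differently numbered libraries they correlated at -0.102 to 0.021. The deviations of a group's 3 libraries sum to 0 for each gene, so values above 0 for same numbers force some of the others below 0. The same-numbered values were all above 0 but at most 0.112, and not every library correlated best with its own number. Because the labels do not say what a number marks, the reported fit did not take the numbers as pairs. With a replicate block 7, 8 and 8 members were called for beta against alpha, beta against delta and alpha against delta. Isl1 was the member added for beta against alpha (adjusted p = 0.0341). Genes called with the block were 4625, 5241 and 4294, more than the reported 4231, 4869 and 3868. Mnx1 could not be fitted for alpha against delta with only those 6 libraries, where it failed the filter. The alternatives for neighbours and listed genes were added after seeing the data: 1473 values kept their call, 104 lost it with the same sign, 13 gained it and 9 changed sign. The last were Rfx7 for beta minus delta (0.048 on rescaled TPM, where its call was also lost), 6430503K07Rik for beta minus alpha (0.015 without alpha replicate 2 and 0.012 without beta replicate 3) and Paupar for beta minus alpha (-0.038 with upper-quartile factors, -0.016 and -0.014 on TPM with 1 and 0.1 added, -0.10 without alpha replicate 1, -0.0083 without beta replicate 1 and -0.067 without the 3 libraries). Without 1 library at a time, values ran from -0.045 to 0.0098 for Neurod1 and -0.39 to 0.015 for 6430503K07Rik in beta minus alpha. Of the counts per list under these alternatives, 297 stayed within 1.5 times the reported count and 63 did not. At this depth Mnx1 had at most 68 counts in a library and Pax4 had 0.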
